A study of Mus musculus with 13 samples.

Results

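STAT3 binding at the AP-1 genes Batf, Jun, Junb, Jund, Fos, Fosb and Fosl2 and at the immediate early genes Egr1 and Klf10 was read from the peak lists of 12 CUT&RUN libraries. A region was taken for these 9 genes when it overlapped the RefSeq span of a gene extended by 20 kb on each side. Overlapping peaks (1 bp or more) from any libraries formed 1 region, which gave 19 regions of 11227 in the whole series, holding 56 of 13513 peaks. Each of the 9 genes had at least 1 region, as did 39.6% of 21883 protein-coding genes.

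CUT&RUN uses an antibody, here to STAT3, to bring a nuclease to bound DNA, and the fragments cut free are sequenced. Naive B cells from mouse spleen first received anti-CD40 at 1 µg/mL together with IL-4 at 12.5 ng/mL over 96 h, so that all cells had seen IL-4. IgM+ and IgG1+ cells were then sorted and restimulated for 1 h. One arm received anti-CD40 with IL-4 at 12.5 ng/mL, and the other received anti-CD40 with IL-21 at 10 ng/mL and no IL-4. Wild-type (WT) cells gave 4 groups of 2 libraries, namely IL-21 IgM, IL-21 IgG1, IL-4 IgM and IL-4 IgG1. STAT3 knockout (KO) cells gave the same 4 groups with 1 library each, and an input sample was not used here. The labels do not say how or in which cells STAT3 was deleted, nor whether replicates came from separate animals. What a p-value measures here is thus the variation among libraries, possibly technical. A peak list holds no RNA level, so neither the cell type nor the loss of STAT3 was checked against marker genes.

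AP-1 is a family of dimeric transcription factors in which a JUN protein pairs with a FOS or BATF protein through a leucine zipper. Many of its genes, like Egr1 and Klf10, are immediate early genes, which are transcribed within minutes of a stimulus without new protein synthesis. In lymphocytes BATF pairs with JUN proteins and binds DNA jointly with IRF4 or IRF8, and B cells need BATF for class switching. STAT3, which IL-21 activates through JAK kinases, binds DNA as a dimer, with TTCNNNGAA as the core of its usual site.

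The RefSeq promoter table (GRCm38.p6, the assembly behind mm10) held 7 of the 9 genes and not Egr1 or Klf10. The promoter window runs from 250 bases before to 50 bases after the annotated start. Peaks of more than 1 library touched this window at Batf and Fos, which is why these 2 sequences are shown, 5′ to 3′. Capitals mark the bases covered by the peaks of every library that had one there (3 libraries at Batf, 2 at Fos).
Batf promoter, chr12:85686470-85686769, plus strand: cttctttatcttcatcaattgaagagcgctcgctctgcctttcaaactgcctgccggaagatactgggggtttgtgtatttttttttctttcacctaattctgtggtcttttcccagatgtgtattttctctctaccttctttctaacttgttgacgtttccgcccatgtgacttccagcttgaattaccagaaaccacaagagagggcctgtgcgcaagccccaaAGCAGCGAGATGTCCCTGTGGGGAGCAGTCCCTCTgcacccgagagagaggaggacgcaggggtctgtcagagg
Fos promoter, chr12:85473640-85473939, plus strand: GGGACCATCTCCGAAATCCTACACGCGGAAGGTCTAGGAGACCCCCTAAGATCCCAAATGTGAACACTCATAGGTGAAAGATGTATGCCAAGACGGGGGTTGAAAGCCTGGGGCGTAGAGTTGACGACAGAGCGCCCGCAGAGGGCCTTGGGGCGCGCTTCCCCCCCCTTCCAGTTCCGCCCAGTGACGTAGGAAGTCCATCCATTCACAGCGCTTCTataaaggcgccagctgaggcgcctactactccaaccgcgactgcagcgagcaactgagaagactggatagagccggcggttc
Within the windows, the shared stretch covered 35 bases from -24 to 10 around the Batf start. Before the Fos start it covered 218 bases from -250 to -33, cut at the window's edge because both peaks began before it. The Batf window was 49.7% G or C and the Fos window 58.7%. Searched were the STAT core TTCNNNGAA, the same core with 1 more base in its spacer (the spacing STAT6 prefers) and the AP-1 core TGANTCA, which all read the same on both strands. None of them occurred in the 7 member promoters (0 of 7 each). Over all 32851 promoters of the table the shares were 8.3%, 6.95% and 7.81%. This says only that these letters do not occur in these windows. Of the other 5 promoters, that of Jun was touched by a peak of 1 library and those of Junb, Jund, Fosb and Fosl2 by none.

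Every member region that was found in WT cells had a peak with IL-21, and none was found with IL-4 alone. The share of all WT regions found with IL-4 alone was not counted. An IL-4 peak, with or without IL-21, was present at 45.8% of all WT regions and 22.2% of the member regions found in WT. Of the 19 regions 18 were found in WT, and 8 of these (44.4%) recurred in 3 or 4 of the WT libraries given IL-21, against 4.87% of all 7461 WT regions and 5.49% of the 5521 WT regions within 20 kb of a protein-coding gene. These 8 regions lay at Batf (2), Junb (2), Jund (2), Egr1 (1) and Klf10 (1). Counted by gene, 5 of the 9 members had such a region, against 2.5% of protein-coding genes, and 3 (Batf, Junb and Jund) had 2 of them, against 0.315%. Of the 19 regions 13 were found in at least 2 libraries (68.4%, against 9.33% of all regions). The genes were chosen with results of these data known, so these shares describe the members and were not tested. Each of the 4 IL-21 libraries is needed for part of the count. Requiring a peak in all of the other 3 gave 3 regions without the first IgM library, 7 without the second, 4 with the first IgG1 library left out and 3 with the second left out.

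**Figure D1:**
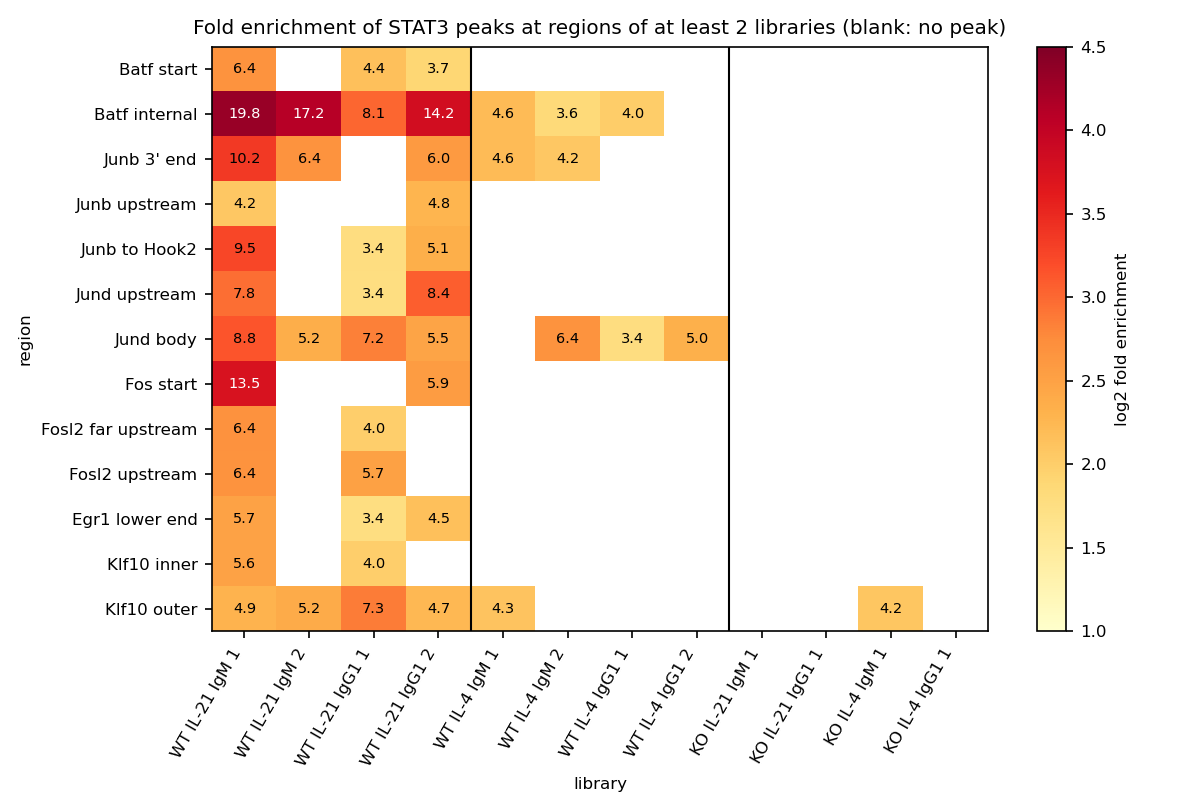
Fold enrichment of the peak in each of 12 libraries (columns) at the 13 member regions found in at least 2 libraries (rows); colour gives log2 fold, the printed number the fold, and blank means no peak. Most filled cells are in the left block of WT IL-21 libraries, where the internal Batf region has folds of 8.09 to 19.8. Its IL-4 folds are 3.597 to 4.61, within the range of 3.43 to 6.41 at the Jund body.

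A peak's fold enrichment is the authors' ratio of summit signal to local background within its own library. The member region with the highest mean fold with IL-21 lay inside Batf (chr12:85704766-85706357), with summits 18879 to 19323 bp after the gene's start. With IL-21 its fold was 19.8 and 17.2 in the IgM libraries and 8.09 and 14.2 in the IgG1 libraries (14.8 ± 5.04, SD, n = 4). With IL-4 it was 4.61 and 3.597 in the IgM libraries and 4.00 in the first IgG1 library, and the second IgG1 library had no peak. The IL-21 folds lay above the IL-4 folds without overlap, but in lists with higher upper folds over all peaks. The 4 other regions with the same presence over the libraries also had higher mean folds with IL-21 (14.2 to 57.9) than with IL-4 (5.96 to 8.01). The share of all regions with such a separation of folds was not counted, so it cannot be read as particular to Batf. Presence alone at the internal Batf region, 4 libraries against 3, did not differ (Fisher's exact test p = 1, adjusted p = 1). By −log10 p, the authors' measure of confidence, this peak ranked 56 of 2034, 35 of 1171, 65 of 865 and 57 of 1485 in the IL-21 lists. In the IL-4 lists it ranked 534 of 1455, 627 of 853 and 331 of 651. These lists differ in length, so the ranks place the peak within each list and show no change between treatments. No KO library had a peak at Batf.

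The fold and the −log10 p of a peak together fix the number of fragments stacked at the summit and the local background, and a whole number was found for all 56 member peaks. At the internal Batf region 63, 61, 30 and 44 fragments were stacked with IL-21 over backgrounds of 2.16 to 2.83. With IL-4, 15, 16 and 17 fragments were stacked over backgrounds of 2.47 to 3.73. Fragments at the summit were thus more numerous in all 4 IL-21 libraries, while the ranges of the background overlapped. These fragment numbers are not adjusted for depth, which is not given with the lists. How many of all regions show such a separation of fragment numbers was not counted.

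Batf had 2 more regions, and both were seen with IL-21 only. The region at the gene's start (chr12:85686461-85686996) had a fold of 6.36 in the first IgM library, 4.45 in the first IgG1 library and 3.72 in the second. Summits lay at -29, -228 and 209 bp from the start, and thus apart from each other by up to 437 bp. None of these summits lay within the capitals of the Batf sequence above. No IL-4, KO or second IgM library had a peak there (Fisher's exact test p = 0.143, adjusted p = 1). These peaks stood low in their lists, at ranks 704 of 2034, 536 of 865 and 1349 of 1485. A region 1270 bp beyond the gene (chr12:85710357-85710632) was found in the second IgG1 library alone, at a fold of 4.42.

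**Figure D2:**
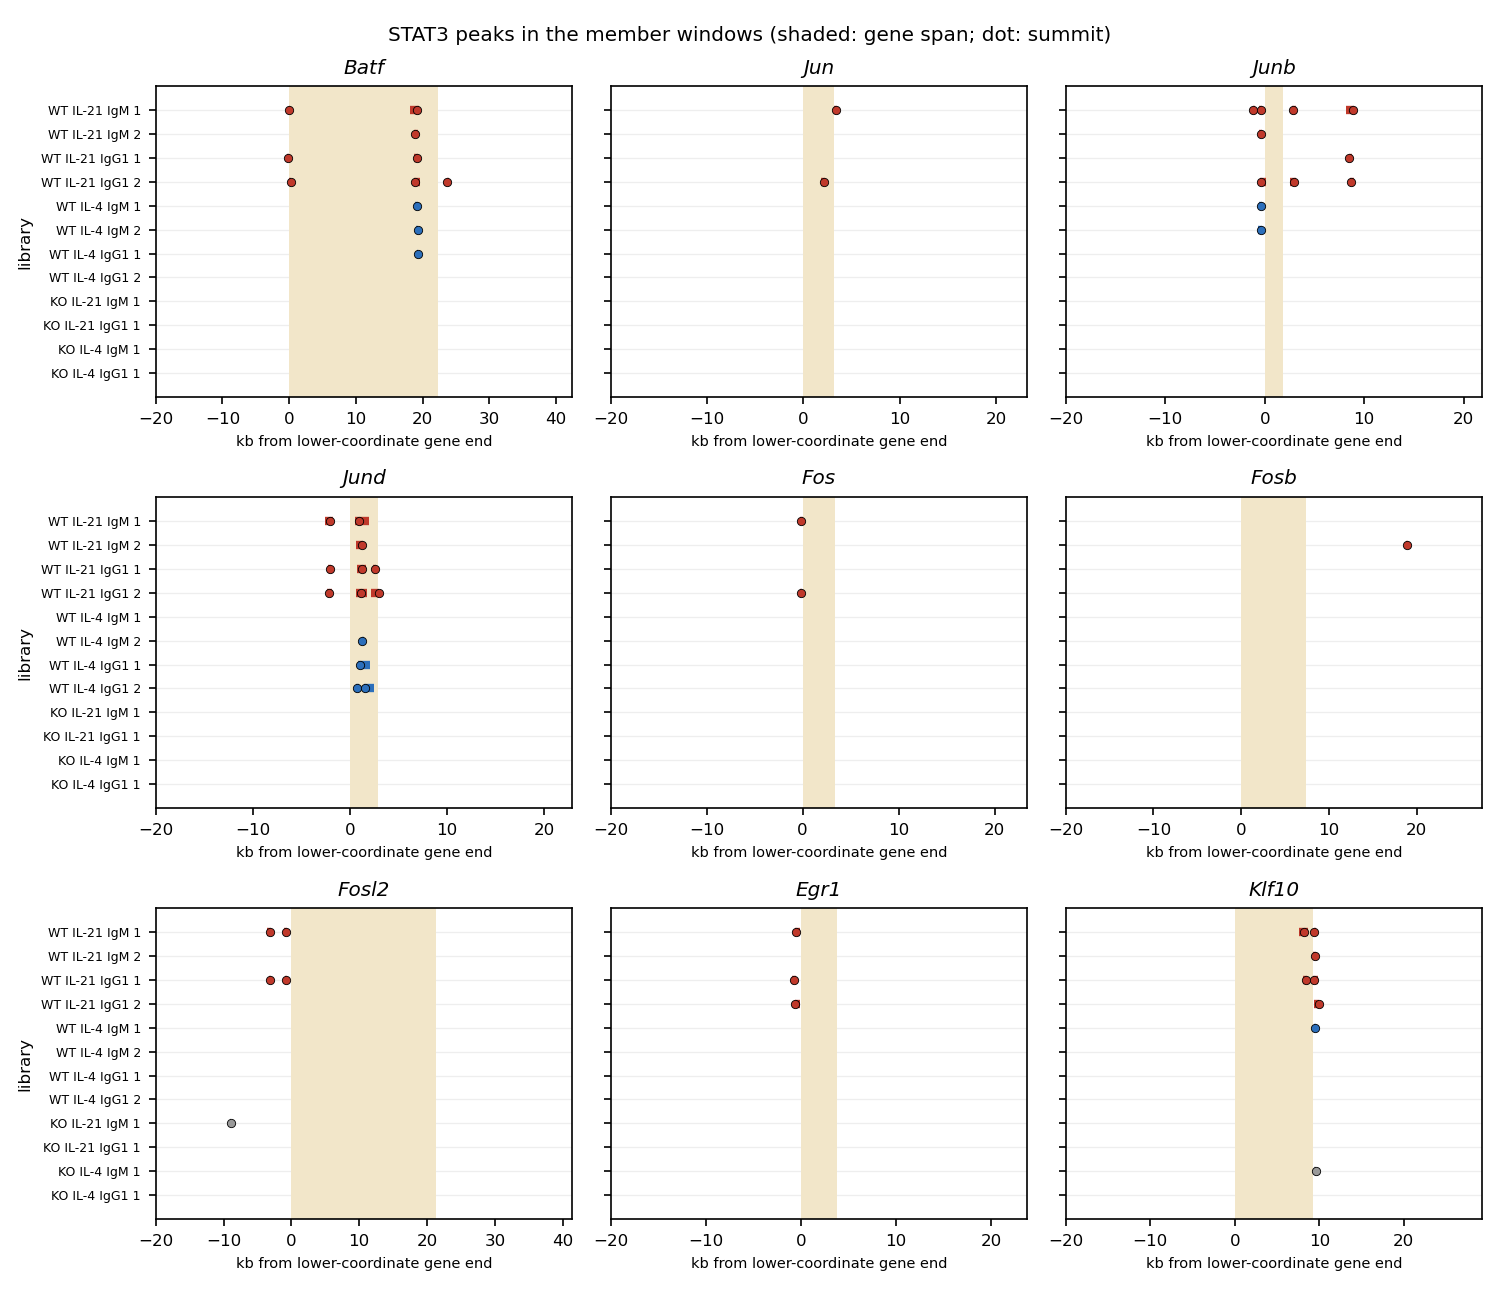
Positions of the peaks (bars) and their summits (dots) in the 12 libraries (rows) around each gene, in kb from the lower-coordinate end of its span (shaded), with 20 kb on each side; red marks WT IL-21, blue WT IL-4 and grey KO libraries. Most regions lie within 1 kb of the gene or in it (13 of 19).

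Among the JUN genes, whose proteins pair with FOS and BATF proteins, Junb had 4 regions, Jund 2 and Jun 2. At the 3′ end of Junb (chr8:84976247-84977025) the fold with IL-21 was 10.2 and 6.36 in the IgM libraries and 6.004 in the second IgG1 library, and the first IgG1 library had no peak. With IL-4 it was 4.62 and 4.22 in the IgM libraries, and no IgG1 library had one. The IL-21 folds were above those with IL-4, again in lists with higher upper folds, and the summits of all 5 peaks fell within 81 bp of each other. With 3 libraries against 2, presence did not differ (Fisher's exact test p = 1, adjusted p = 1).

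The other repeated Junb regions were found only with IL-21. That at chr8:84985094-84985931 lay 6346 bp before Junb and 2845 bp from Hook2, a microtubule-binding adaptor gene, so that it cannot be assigned to either gene from position. Its fold was 9.51 in the first IgM library, 3.40 in the first IgG1 library and 5.10 in the second. A region 754 bp upstream of Junb (chr8:84979502-84980046) had folds of 4.22 in the first IgM library and 4.85 in the second IgG1 library. The fourth lay 951 bp beyond the 3′ end of Junb and 922 bp from Prdx2, so it too cannot be assigned from position. It was found in the first IgM library alone (chr8:84975733-84975958, fold 4.88). The second IgM library thus had a peak only at the 3′ end of Junb.

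Jund, whose product is a broadly expressed JUN protein, carried a wide region over its body (chr8:70698301-70700693, 2393 bp). Its fold with IL-21 was 8.83 and 5.15 in the IgM libraries and 7.17 and 5.52 in the IgG1 libraries (6.67 ± 1.69, SD, n = 4). With IL-4 it was 6.41 in the second IgM library and 3.43 and 5.03 in the IgG1 libraries, taking the higher fold where a library had 2 peaks there. These ranges overlapped, unlike those at Batf. In its own list the peak of the second IgM IL-4 library ranked 32 of 853. Stacked fragments numbered 39, 39, 46 and 38 with IL-21, and 28, 23 and 15 with IL-4. The other peak of the second IgG1 IL-4 library had a lower fold (4.68) and more fragments, 20. With either of these IL-4 peaks, the counts at the higher-fold IL-21 peaks did not overlap those with IL-4, while the folds did. The other peaks of the first and second IgG1 IL-21 libraries had 14 and 20 fragments, not above the IL-4 range. None of these counts is adjusted for depth, and the share of all regions with such a separation of counts was not counted. At the higher-fold peaks the local background ran from 3.53 to 6.76 with IL-21 and from 2.18 to 6.0 with IL-4.

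A separate region 1752 bp upstream of Jund (chr8:70695217-70695987) was seen only with IL-21. Its fold was 7.77 in the first IgM library and 3.37 and 8.37 in the IgG1 libraries, with summits within 79 bp. In the second IgG1 library it ranked 118 of 1485, and in the first 785 of 865. Jun, the founding member of the family, had 2 weak regions of 1 library each, 1 inside the gene (chr4:95050876-95051218, fold 4.82, second IgG1 IL-21 library) and 1 across its start (chr4:95052213-95052479, fold 5.13, first IgM IL-21 library). The latter also overlapped the span of Junos, a gene beside Jun.

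**Figure D3:**
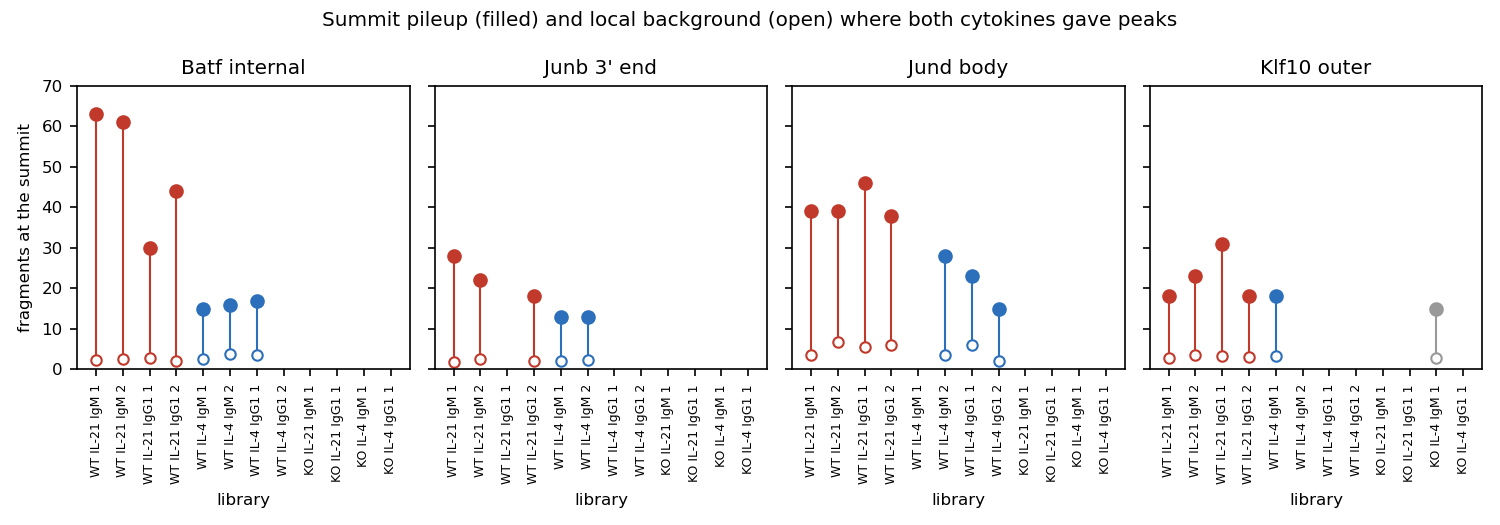
Fragments stacked at the summit (filled) and local background (open) in each library at the 4 member regions with peaks under both cytokines; red marks WT IL-21, blue WT IL-4 and grey KO, no symbol means no peak, and of 2 peaks in a library the one with the higher fold is drawn. Batf internal stands at 30 to 63 fragments with IL-21 and 15 to 17 with IL-4.

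The FOS genes, whose proteins need a JUN partner to bind DNA, had fewer repeated regions. The Fos region (chr12:85473571-85473881) ended 9 bp before the gene's start and had a fold of 13.5 in the first IgM IL-21 library and 5.93 in the second IgG1 IL-21 library. Its summits lay at -136 and -187 bp, within the capitals of the Fos sequence above. The first value, with 55 stacked fragments and rank 96 of 2034, is the highest member fold outside the internal Batf region. The other 10 libraries had no peak, so this strong site rests on 1 library of each isotype (Fisher's exact test p = 0.429, adjusted p = 1).

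Fosl2, which encodes FRA-2, had a pair of regions upstream of its start, at chr5:32135362-32135839 (633 bp away) and chr5:32132892-32133514 (2958 bp away). Both were found in the first IgM and the first IgG1 IL-21 library, with folds of 6.36 and 5.72 at the nearer and 6.43 and 3.97 at the farther region. The summits of the 2 libraries fell within 11 and 29 bp of each other. The last region, 8854 bp upstream (chr5:32127376-32127618, fold 4.63), was found in the KO IgM library with IL-21 alone. Fosb had 1 region, 11318 bp from the gene and upstream of its start (chr7:19321436-19321733, fold 4.47), in the second IgM IL-21 library only.

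Egr1 encodes a zinc finger factor and Klf10 a Krüppel-like factor induced by TGF-beta. The Egr1 region (chr18:34860243-34861130) lay 77 bp outside the lower-coordinate end of the gene. Its fold was 5.66 in the first IgM library and 3.37 and 4.46 in the IgG1 libraries with IL-21, and no other library had a peak. Ranks of 783 of 2034, 785 of 865 and 830 of 1485 placed it at 38.5%, 90.8% and 55.9% of the way down these lists.

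Klf10 had the only WT region with a KO peak. This region (chr15:38300760-38301437, 49 bp outside the higher-coordinate end, within the predicted gene Gm35248) had folds of 4.90 and 5.24 in the IgM and 7.31 and 4.71 in the IgG1 IL-21 libraries (5.54 ± 1.20, SD, n = 4). It also had a peak in the first IgM IL-4 library (4.32) and in the IL-4 library of KO IgM cells (4.24). Both values were below the 4 IL-21 folds, yet within 1.20, the SD of the IL-21 folds, of the lowest of them. A second region inside Klf10 (chr15:38299066-38300084) had folds of 5.64 and 3.97 in the first IgM and first IgG1 IL-21 libraries.

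The comparison of treatments asked which sites carry STAT3 after IL-21. Because the IL-21 arm had no IL-4 in its last hour, the gain of one cytokine and the removal of the other cannot be told apart. No member region was present in each of the 4 WT libraries with IL-21 and absent from the 4 with IL-4 (0 of 18, against 1.31% of all WT regions), and none showed the reverse (0.0% of all WT regions). At 4 of the 18 regions a WT IL-4 library had a peak too (22.2%, against 45.8% of all WT regions), and all 4 also had IL-21 peaks. These were the internal Batf region, the 3′ end of Junb, the Jund body and the outer Klf10 region. Among regions of at least 3 WT IL-21 libraries, 4 of 8 members had an IL-4 peak, against 27.5% of all 363 such regions, and 1 of 8 had a KO peak, against 20.9%. The other 4 of 18 (22.2%, against 3.52% of all WT regions) recurred with IL-21 and had no IL-4 peak. Fisher's exact test passed at 0 member regions, adjusted over 7461 regions or unadjusted (smallest p = 0.143), and at 0 regions of the whole table (98 unadjusted, at p = 0.0286, the smallest possible). Exact permutation within isotype also gave 0 regions, but its p cannot go below 0.0556.

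The count of 0 rests on single libraries and on weak peaks. Without the second IgM IL-21 library, 4 regions were present in the other 3 IL-21 lists and absent from every IL-4 list, namely the Batf start, the region between Junb and Hook2, the Jund upstream region and Egr1. Without the first IgM IL-4 library the outer Klf10 region did so. With peaks limited to a −log10 q of 5 or more, the internal Batf and the outer Klf10 region did, and with a fold of at least 5 the internal Batf region alone.

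Within each isotype the treatments were compared by presence only, since 2 libraries against 2 cannot pass Fisher's exact test. In IgG1 cells 5 of 18 member regions were gained, that is present in both IL-21 libraries and in neither IL-4 library (27.8%, against 2.43% of all WT regions). They were the Batf start, the Hook2 side of Junb, the Jund upstream region, Egr1 and the outer Klf10 region. In IgM cells 0 of 18 were gained (4.32% of all WT regions), a count that required a peak in the second IgM library. Over either isotype this made 5 of 18, against 5.43% of all WT regions and 6.32% of those near a gene, and 5 of 9 genes, against 2.9% of protein-coding genes. With 1 IL-21 library left out, and the other library of that isotype deciding alone, the count over either isotype was 12 without the second IgM library and 6 without the first. It was 10 without the first IgG1 library and 8 with the second IgG1 library omitted. The difference between the isotypes was not tested. The first IgM library had a peak at all 13 regions found in at least 2 libraries and the second at 4 of them, while each IgG1 library had 10. There were 7 member regions shared by both IgG1 and the first IgM IL-21 library, and the second IgM library found 3 of them, whereas over all regions it found 167 of 215 (77.7%). Its list of 1171 peaks was longer than that of the first IgG1 library (865), which found 3 of 4 member regions and 55.3% of all regions by the same measure. With the same number of peaks taken from each list (623), 0 regions were gained in either isotype, and 3 regions in place of 8 had a peak in at least 3 IL-21 libraries.

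**Figure D4:**
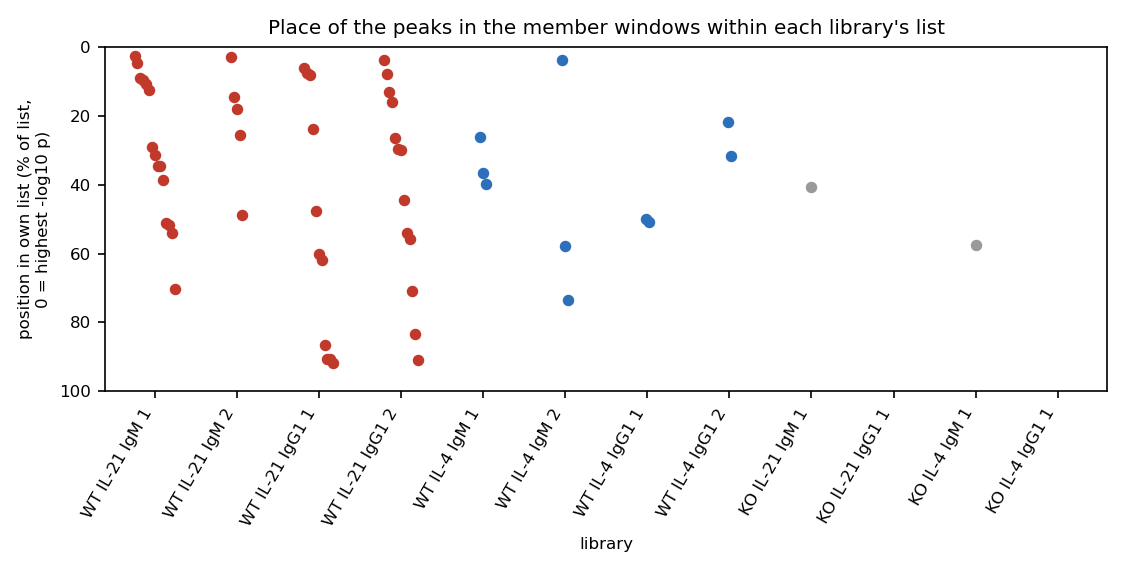
Place of each of the 56 member peaks in its own library's list, ordered by −log10 p and given as a percent of the list (0 is the top); red marks WT IL-21, blue WT IL-4 and grey KO. Lists differ in length, so places are read within a library; in the first IgG1 IL-21 library they run from 6.24% to 91.7%.

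KO libraries serve as the control for the antibody. Of the 18 WT member regions 1, at Klf10, had a KO peak (5.56%, against 4.73% of all WT regions), and the Fosl2 region of the KO IgM library with IL-21 had no WT counterpart. The KO IgG1 libraries had no peak in any of the 9 windows. That with IL-4 held 1892 peaks, but the windows hold few regions (19 of 11227 in the series), so this absence says little. Presence differed between the genotypes at an unadjusted exact permutation p = 0.0247 at the internal Batf region and the Jund body, each in 7 of 8 WT and 0 of 4 KO libraries. After Benjamini-Hochberg adjustment of the exact permutation test over 11227 regions neither passed (adjusted p = 0.932), nor did any other region (0 adjusted, 27 or 0.24% unadjusted). The smallest p that 81 arrangements allow is 0.0123. The absence of a peak is not the absence of binding. The smallest pileup called anywhere was 10 to 12 fragments per library, and weak member peaks, such as those at the Batf start (13 to 17 fragments), stood little above this.

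Some regions just outside the 20 kb windows were strong, while most were found in 1 library, like the farthest region kept. The farthest region kept was that of Fosb at 11318 bp (fold 4.47 in 1 library). Of 7 regions up to 10 kb beyond the windows, 1 stood 20636 bp from Fosb and 564 bp from Rtn2, a reticulon gene (chr7:19281495-19282060), with folds of 12.4 and 9.41 in the IgM and 12.4 and 7.27 in the IgG1 IL-21 libraries. No other library had a peak overlapping it, but a peak of the KO IgM library with IL-21 lay directly beside it (chr7:19281175-19281415, fold 4.63). Another, at Lsm4 and 23386 bp from Jund (chr8:70673105-70674353), had folds of 56.7 to 103 with IL-21 and 10.1 to 18 with IL-4 and no KO peak. Both lie at or nearer to other genes. That KO peak and the other 4 regions were each found in 1 library, at folds of 3.08 to 6.92. The highest of these folds came from the first IgM IL-4 library of WT cells, where the peak ranked 46 of 1455. This region, found with IL-4 alone, lay 22389 bp from Egr1 and 15160 bp from Etf1 (chr18:34887345-34887625).

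Other genes of these families were counted in the same windows. Of 19 other AP-1 family genes 1 had a region of at least 3 WT IL-21 libraries, namely Maff, a small MAF protein (chr15:79347210-79348250, 4 libraries, fold 13.0 ± 4.62, SD, n = 4, also in 1 IL-4 and 2 KO libraries). Of 15 other EGR and KLF genes 0 had one. Of 24 other immediate early genes 2 had one: Zfp36, which encodes the mRNA decay factor tristetraprolin and had 2 regions of 4 IL-21 libraries and no other (fold 14.9 ± 5.50 and 10.1 ± 4.12, SD, n = 4), and Dusp1, a MAP kinase phosphatase gene (3 IL-21 libraries, fold 4.44 to 12.6). Of 24 genes of the MAP kinase pathway 4 had one, at Map3k1 (10.6 ± 5.38, SD, n = 4), Nras (6.46 ± 1.26, SD, n = 4), Map3k5 (4.88 to 8.47 in 3 libraries) and Map3k8 (6.61 to 8.35 in 4 IL-21 libraries, also in 1 IL-4 and 1 KO library). The shares were 5.26%, 0.0%, 8.33% and 16.7%, against 2.5% of all protein-coding genes. The median number of regions per gene was 0 among the other AP-1 genes, 1 in the other 3 lists, 2 among the 9 members and 0 over all genes.

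The internal Batf region and the Jund body were each found in 7 libraries, the most of any member region. Over the 12 libraries 4 other regions had the same presence as the Batf region, at Slc39a1, Lmna, Jak3 and Otud5. Their mean IL-21 folds were 57.9, 28.4, 18.99 and 14.2, and their mean IL-4 folds 6.30, 7.22, 5.96 and 8.01, against 14.8 and 4.07 at Batf. No other region shared the presence of the Jund body.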

How the data were processed

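Per the submitters' processing notes, Trimmomatic 0.39, Bowtie2 2.4.1, MACS2 2.2.7.1 and deepTools 3.5.1 and the build mm10 were used, with no role stated. Sources used here do not give the peak-calling control, read filters or any use of the yeast spike-in. The deposited list of each library holds the authors' fold enrichment (a ratio), −log10 values of p and q, and a score, which for nearly all peaks equals the −log10 p multiplied by 10 and cut to a whole number. The lists held 13908 peaks, 623 to 2034 per library on chromosomes 1 to 19, X and Y, and 395 on other sequences were left out. Depth is not given with the lists. A whole pileup within 0.001 was found for 99.1% to 99.9% of peaks with a −log10 p under 100, with a lowest background of 1.72 to 2.61 fragments.

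Gene spans came from RefSeq (GRCm38.p6), without exons, and strand from its promoter table. Genotype was tested by exact permutation within treatment and isotype (81 arrangements), treatment by Fisher's exact test, both two-sided with Benjamini-Hochberg adjustment over all regions and tested on simulated data. Members and lists were chosen with earlier results of these data known. Named were all members, each region of at least 2 libraries, the strongest region of 1 library per gene, the strongest regions just outside a window, genes beside a described region, list genes with a region of at least 3 WT IL-21 libraries, and regions with the presence of the member region found in the most libraries. Python 3.11.15, pandas 2.3.3 and scipy 1.17.1 were used. Alternatives were summit-based merging, other windows, stricter peaks, equal list lengths and leaving out each WT library.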

Additional observations from a re-analysis of the deposited data

How the results depend on the processing

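The number of member regions (19) was 29 with windows of 50 kb, and otherwise 13 to 26 under the alternatives run. The 8 regions of at least 3 WT IL-21 libraries became 5 when summits within 200 bp made 1 region, 4 with a −log10 q of at least 5, and 3 with a fold of at least 5 or with equal list lengths. The 5 regions gained in either isotype became 2, 3, 2 and 0 under the same settings in that order. The 0 regions gained in all WT libraries became 1 with windows of 50 kb (the region near Rtn2), 2 with a −log10 q of at least 5 and 1 with a fold of at least 5. Leaving out 1 WT library at a time gave 17 to 20 member regions, 3 to 8 regions of at least 3 IL-21 libraries, 0 to 4 gained in all libraries and 5 to 12 gained in either isotype, which partly follows from fewer lists having to hold a peak. Over these, the smallest adjusted p at a member region ran from 0.835 to 1 for treatment and from 0.952 to 1 for genotype, and over all settings from 0.779 to 1 for treatment and 0.87 to 1 for genotype, with 0 member regions called. For the 8 regions of at least 3 IL-21 libraries, the number of IL-21 minus IL-4 libraries with a peak was recomputed 95 times. It reversed 0 times, but fell to 0 in 11, all at the internal Batf region, the 3′ end of Junb or the Jund body without 1 IL-21 library. Leaving out 1 library could not reverse it, since it was at least 1 at each of the 8 regions. Summit-based merging could not change it either, because every peak at the site was still counted. The absence of reversals is thus no measure of stability under these settings.

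Replicate numbers are shared by the WT groups but the labels do not say that they pair libraries. Differences between replicates 1 and 2 correlated between groups at -0.0153 to 0.0198 over 7461 regions. Of all 11227 regions 90.7% were found in 1 library, and such a region differs between replicates in 1 group at most. These correlations therefore do not decide whether replicate numbers pair libraries. With the replicate block, exact permutation gave a smallest adjusted p of 1 at member regions (unadjusted 0.25, smallest possible 0.125), and 0 calls as before. Weak peaks near the smallest called pileup limit these counts.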
